A study of Homo sapiens with 6 samples.

Results

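The genes described here are the human protein-coding genes of splicing factors, heterogeneous nuclear ribonucleoproteins (hnRNPs) and related RNA-binding proteins. They were chosen by symbol from the RefSeq gene table of GRCh38.p14, the assembly also called hg38, on the autosomes and chromosome X. A gene was taken when its symbol begins with SRSF, HNRNP, SNRP, SF3A, SF3B, PRPF, U2AF, RBM or LSM, which gave 134 of 19821 protein-coding genes. DNA G-quadruplexes (G4s), which form when guanine-rich strands fold into stacked structures, were mapped in U2OS cells by sequencing the chromatin that the G4 antibody BG4 precipitated (ChIP-seq). U2OS is a human osteosarcoma line. The HD group was treated with 1,6-hexanediol, an alcohol that dissolves many biomolecular condensates, and the Ctrl group was untreated. Both groups were fixed with 1% formaldehyde for 10 min, and each had 2 BG4 libraries and 1 input library. How much hexanediol was used, and for how long, is not known here. For each group 1 peak list was analysed, with 2269 peaks in HD and 3507 peaks in Ctrl. Values therefore carry no error between replicates, and differences between the groups were not tested. In the HD list every one of the 2269 peaks is named for replicate 1, and that list may rest on 1 library.

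Splicing removes introns from nascent transcripts and is carried out by the spliceosome. Its core is built of small nuclear ribonucleoproteins (snRNPs), each a small RNA held in a ring of Sm or LSm proteins and joined by particle-specific proteins such as the SF3A, SF3B and PRPF factors. SR proteins, encoded by the SRSF genes, and hnRNPs bind nascent RNA and steer the choice of splice sites. Many of these proteins gather in nuclear speckles, bodies of the nucleus that are rich in splicing factors. The symbol rule also takes genes with other roles, such as LSMEM1 and LSMEM2, which are named for a membrane protein family, and RNA-binding proteins of the RBM family that act outside splicing.

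A gene was called marked in a list when a peak lay within 1 kb of either of its ends. The bases before the annotated start are shown for 7 marked genes, to let the sequence around the summits be read beside the values. They are the first 250 bases of RefSeq promoters of GRCh38.p14, written 5′ to 3′ on the strand of the gene and ending at the base before the start. Capitals mark each run of at least 3 G or at least 3 C, the element from which G4s are built on one strand or the other. The first 3 belong to genes marked in both lists, the next pair to genes marked in HD only and the last pair to genes marked in Ctrl only.
LSM14B, chr20:62122225-62122474, plus strand: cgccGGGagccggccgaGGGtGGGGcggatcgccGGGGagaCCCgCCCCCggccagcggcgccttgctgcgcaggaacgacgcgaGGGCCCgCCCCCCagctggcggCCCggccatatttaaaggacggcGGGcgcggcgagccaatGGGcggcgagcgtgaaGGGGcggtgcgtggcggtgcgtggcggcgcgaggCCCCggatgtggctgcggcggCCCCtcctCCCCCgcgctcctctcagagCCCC
RBM6, chr3:49939900-49940149, plus strand: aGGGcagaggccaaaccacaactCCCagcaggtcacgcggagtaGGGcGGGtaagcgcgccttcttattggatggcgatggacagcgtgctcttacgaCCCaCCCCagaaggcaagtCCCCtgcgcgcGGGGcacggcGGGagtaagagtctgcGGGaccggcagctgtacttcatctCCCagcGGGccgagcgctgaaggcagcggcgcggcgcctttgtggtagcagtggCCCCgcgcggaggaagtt
HNRNPA3, chr2:177212544-177212793, plus strand: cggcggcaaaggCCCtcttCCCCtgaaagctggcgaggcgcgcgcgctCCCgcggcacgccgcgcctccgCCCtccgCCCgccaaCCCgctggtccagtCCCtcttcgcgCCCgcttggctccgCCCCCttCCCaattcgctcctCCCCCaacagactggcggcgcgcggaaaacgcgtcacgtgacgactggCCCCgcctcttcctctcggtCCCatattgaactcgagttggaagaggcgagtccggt
LSM4, chr19:18323077-18323326, minus strand: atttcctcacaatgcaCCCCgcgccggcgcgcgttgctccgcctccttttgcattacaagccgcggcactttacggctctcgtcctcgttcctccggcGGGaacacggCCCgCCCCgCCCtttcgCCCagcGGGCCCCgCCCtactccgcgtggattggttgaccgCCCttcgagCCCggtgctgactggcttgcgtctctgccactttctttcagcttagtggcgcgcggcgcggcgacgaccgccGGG
SF3B2, chr11:66052114-66052363, plus strand: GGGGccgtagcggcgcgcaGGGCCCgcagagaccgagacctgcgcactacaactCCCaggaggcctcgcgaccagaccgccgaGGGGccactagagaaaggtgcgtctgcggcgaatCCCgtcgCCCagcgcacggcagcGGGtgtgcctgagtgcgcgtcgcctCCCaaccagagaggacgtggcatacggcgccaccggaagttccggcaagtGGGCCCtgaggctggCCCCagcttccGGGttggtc
SRSF4, chr1:29181901-29182150, minus strand: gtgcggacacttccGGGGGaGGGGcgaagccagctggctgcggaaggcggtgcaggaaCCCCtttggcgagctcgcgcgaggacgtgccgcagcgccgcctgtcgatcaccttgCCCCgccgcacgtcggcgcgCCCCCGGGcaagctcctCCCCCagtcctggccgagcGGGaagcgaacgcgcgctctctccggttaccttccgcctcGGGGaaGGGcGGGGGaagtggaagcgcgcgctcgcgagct
RBM14, chr11:66616380-66616629, plus strand: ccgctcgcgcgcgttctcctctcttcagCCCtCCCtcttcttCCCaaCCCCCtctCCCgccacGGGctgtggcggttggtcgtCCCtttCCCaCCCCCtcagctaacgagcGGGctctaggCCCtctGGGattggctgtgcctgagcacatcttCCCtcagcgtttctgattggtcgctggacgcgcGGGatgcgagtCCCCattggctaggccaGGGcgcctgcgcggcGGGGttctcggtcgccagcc
The HNRNPA3 window, which held 13 runs of C and 0 runs of G, overlaps the miRNA gene MIR4444-1. The SRSF4 window lies within the neighbouring gene MECR, and the LSM14B window overlaps a long noncoding RNA gene. Of these 7 windows, those of LSM4 and RBM14 held the G4 motif of 4 runs of GGG with 1 to 7 bases between them, both on the strand opposite to the one shown. In LSM4 the motif ran from base -142 to base -113 before the start, and in RBM14 from base -222 to base -199. The LSM4 summit in HD lay 135 bp before the start, over the motif, and the RBM14 summit in Ctrl lay 133 bp before it.

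BG4 peaks lay at the ends of 18 splicing factor and hnRNP genes in HD and 28 in Ctrl. In HD this was 13.4% of the 134 members, against 8.11% of all coding genes. In Ctrl it was 20.9% of the members, against 10.9% of all coding genes. The member share stood above the share over all coding genes in each list. Both lists marked 11 members (8.21%, against 5.20% of all coding genes). HD alone marked 7 members (5.22%, against 2.92%), and Ctrl alone marked 17 (12.7%, against 5.70%). The remaining 99 members (73.9%) had no peak at an end in either list. Of the 28 Ctrl-marked members, 11 (39.3%) were also marked in HD, beside 47.7% of all Ctrl-marked coding genes. Of the 18 HD-marked members, 11 (61.1%) were also marked in Ctrl, beside 64.0% of all HD-marked coding genes. The Ctrl list is the longer one. When 2172 peaks were taken from each list by −log10 q, 18 members were marked in HD and 20 in Ctrl. These were 13.4% and 14.9% of the members, against 8.11% and 7.83% of all coding genes. Then 8 members were marked in HD only and 10 in Ctrl only. The shares of these 1-list classes over all coding genes at equal lengths are not given.

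Counts per list varied between the gene families, and are to be read against 8.11% of all coding genes in HD and 10.9% in Ctrl. SRSF genes were marked at 1 member in HD and 4 in Ctrl of 12, and SNRP genes, which encode Sm and other snRNP proteins, likewise at 1 in HD and 4 in Ctrl of 12, so that the HD count of both families was near the share over all coding genes. HNRNP genes were marked at 3 members in HD and 7 in Ctrl of 26. RBM genes were marked at 6 in HD and 9 in Ctrl of 45, and LSM genes, for the Sm-like ring proteins, at 2 in each list of 15. PRPF genes were marked at 3 in HD and 2 in Ctrl of 12. Among the small families of the U2 snRNP and of the 3′ splice site, SF3B was marked at 1 of 6 in HD and 0 in Ctrl, U2AF at 1 of 3 in HD and 0 in Ctrl, and SF3A at 0 of 3 in both lists. Put together after their values were seen, the SRSF, HNRNP and SNRP genes were marked at 5 of 50 in HD (10%, against 8.11% of all coding genes) and 15 of 50 in Ctrl (30%, against 10.9%). The other families were marked at 13 of 84 in each list (15.5%). With equal list lengths these counts were 5 in HD and 11 in Ctrl for the first group, and 13 in HD and 9 in Ctrl for the second, beside 8.11% and 7.83% of all coding genes. The difference between families was not tested.

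**Figure D1:**
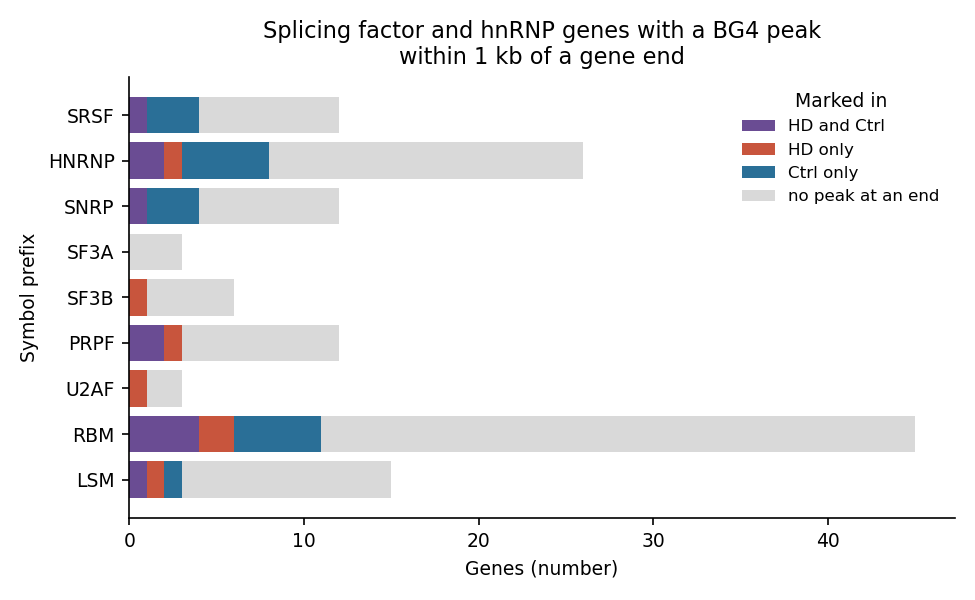
Number of genes per symbol prefix, split by the list in which a BG4 peak lay within 1 kb of a gene end. The SRSF, HNRNP and SNRP bars, put together after their values were seen, hold 50 of the 134 members. They hold 11 of the 17 genes marked in Ctrl only and 1 of the 7 marked in HD only. With equal list lengths they hold 7 marked in Ctrl only and 1 in HD only. With the full lists, 5.70% of all coding genes were marked in Ctrl only and 2.92% in HD only. The shares of these classes over all coding genes with equal list lengths are not given.

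Where a member was marked in both lists, the peak height is given as the number of ChIP fragments over the summit, recovered from the fold enrichment and p-value of the peak caller, with an exact 95% Poisson interval. These intervals cover counting error only. The HD list rested on 1.41 times the ChIP depth of the Ctrl list (27540 against 19601 fragments per Mb). Ratios of fragments between the lists were therefore divided by that figure. The lowest number of fragments at any called summit on the chromosomes compared was 20 in HD and 15 in Ctrl. Member peaks had a median of 34.5 fragments in HD (range 26 to 51, 18 peaks) and 27 in Ctrl (18 to 48, 28 peaks). All gene-end peaks of coding genes had medians of 36 in HD and 27 in Ctrl. The authors' fold over input had a median of 4.06 at member peaks in HD (2.62 to 6.12) and 4.11 in Ctrl (3.12 to 8.04), beside 4.25 and 4.51 at all gene-end peaks. The authors' −log10 q had member medians of 5.3 in HD and 5.31 in Ctrl, beside 6.09 and 6.52. Member peaks were thus near or a little under the typical gene-end peak of their own list in height, and these values are compared only within a list.

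LSM14B, which encodes an LSm-domain RNA-associated protein, had the highest fold of any member in HD. Its peak on chromosome 20 held 43 fragments in HD (31.1 to 57.9) and 37 in Ctrl (26.1 to 51.0) beside 5.85 expected from input in HD and 4.32 in Ctrl. The authors' fold was 6.12 in the HD list and 7.06 in the Ctrl list, and the peak ranked 274 of 2269 in HD and 240 of 3507 in Ctrl by −log10 q. The peak covered chr20:62122092-62122493 in HD and chr20:62122091-62122489 in Ctrl, and the summit stood 211 bp before the start in HD and 133 bp before it in Ctrl, within the window shown above.

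RBM6, an RNA-binding regulator of alternative splicing, had the highest fold of the Ctrl member peaks and the lowest fold of the HD member peaks. It held 50 fragments in HD (37.1 to 65.9) and 44 in Ctrl (32.0 to 59.1), and the summits lay 18 bp apart on chromosome 3, upstream of the start. The number expected from input was 18.2 in HD and 4.53 in Ctrl, a ratio of 4.02 that was not divided by depth. It was the highest among 833 overlapping peak pairs at coding genes, whose median, likewise not divided, was 1.47. The authors' fold was 2.62 in the HD list and 8.04 in the Ctrl list. Fragments per depth gave an HD to Ctrl ratio of 0.809, with a counting interval of 0.528 to 1.24. The difference in fold came with a higher input expectation in HD and with a fragment ratio whose counting interval held 1. The part of the input in this result was not tested.

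Among the SR protein genes, SRSF5 was the one marked in both lists. It had 38 fragments in HD (26.9 to 52.2) and 44 in Ctrl (32.0 to 59.1), in peaks on chromosome 14 whose summit lay 743 bp after the start in HD and 695 bp after it in Ctrl, inside the gene. Its ratio per depth was 0.615 (0.388 to 0.971), the lowest of the members. That interval was the one among the members that lay below 1, but it held 0.933, the median of all 833 overlapping pairs at coding genes. SNRPD3, the gene of the Sm ring protein SmD3, had 49 fragments in HD (36.3 to 64.8) and 48 in Ctrl (35.4 to 63.6). Its ratio was 0.727 (0.478 to 1.11), and the peak also lay at an end of GUCD1.

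Of the RNA-binding proteins outside the core particles, RBM15, an adaptor of the RNA adenosine methylation complex, had 31 fragments in HD (21.1 to 44.0) and 29 in Ctrl (19.4 to 41.6), a ratio of 0.761 per depth. The RBM15 peak also lay at an end of LOC124904276. RBM4B, a paralog of the splicing regulator RBM4, had 35 in HD (24.4 to 48.7) and 23 in Ctrl (14.6 to 34.5), a ratio of 1.08. RBMXL1, an RBMX-like gene whose peak also lay at an end of KYAT3, had 32 in HD (21.9 to 45.2) and 22 in Ctrl (13.8 to 33.3), a ratio of 1.03. The counting interval of each of these 3 ratios held 1.

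Of the hnRNP genes, HNRNPA3, of the family of hnRNP A1, had 34 fragments in HD (23.5 to 47.5) and 27 in Ctrl (17.8 to 39.3), a ratio of 0.896. HNRNPLL, a regulator of alternative splicing best known from lymphocytes, had 41 in HD (29.4 to 55.6) and 28 in Ctrl (18.6 to 40.5), a ratio of 1.04. Both had counting intervals that held 1. The summit of HNRNPA3 lay in its C-rich window, 150 bp before the start in HD and 165 bp before it in Ctrl.

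PRPF39 encodes a protein associated with the U1 snRNP, which recognises 5′ splice sites. It had 50 fragments in HD (37.1 to 65.9) and 27 in Ctrl (17.8 to 39.3), and its ratio of 1.32 (0.810 to 2.19) was the highest of the members.

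Over the 10 members with overlapping peaks the median ratio per depth was 0.862 (range 0.615 to 1.32), with 6 of 10 under 1. All 833 overlapping pairs at coding genes had a median of 0.933, quartiles of 0.809 and 1.07, and 64.5% under 1. The 833 pairs, which include these 10, ranged from 0.556 to 1.80. Without scaling by depth the member median was 1.21, so its side of 1 depends on the depth recovered for the lists.

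**Figure D2:**
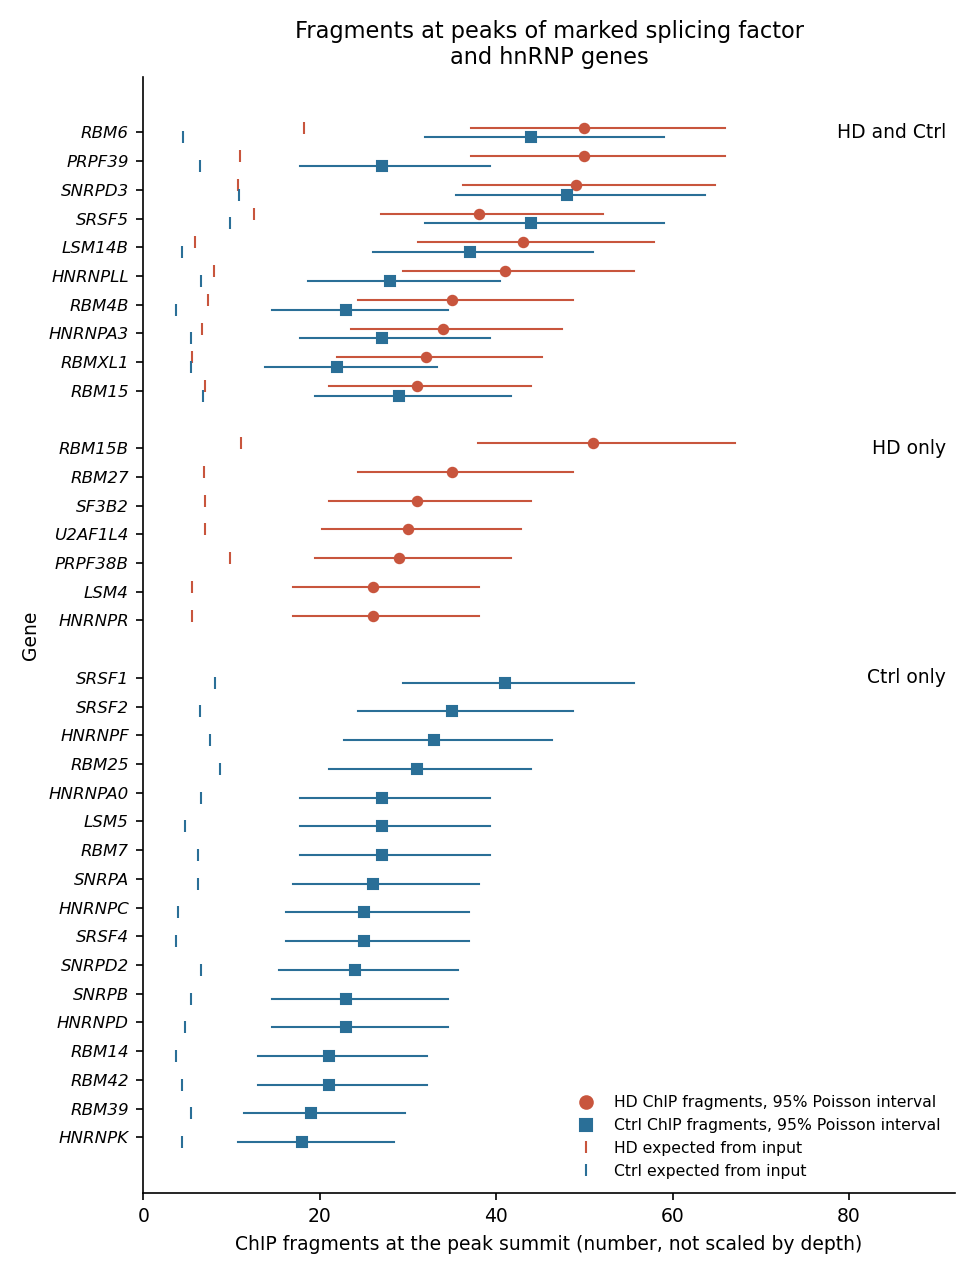
ChIP fragments at the summit of members with overlapping peaks in both lists or a peak in 1 list (horizontal axis, number, not scaled by depth), with HD and Ctrl points and exact 95% Poisson intervals, grouped by the list that marked the gene; short ticks are the numbers expected from input. Genes marked in HD only held 26 to 51 fragments, and genes marked in Ctrl only held 18 to 41.

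**Figure D3:**
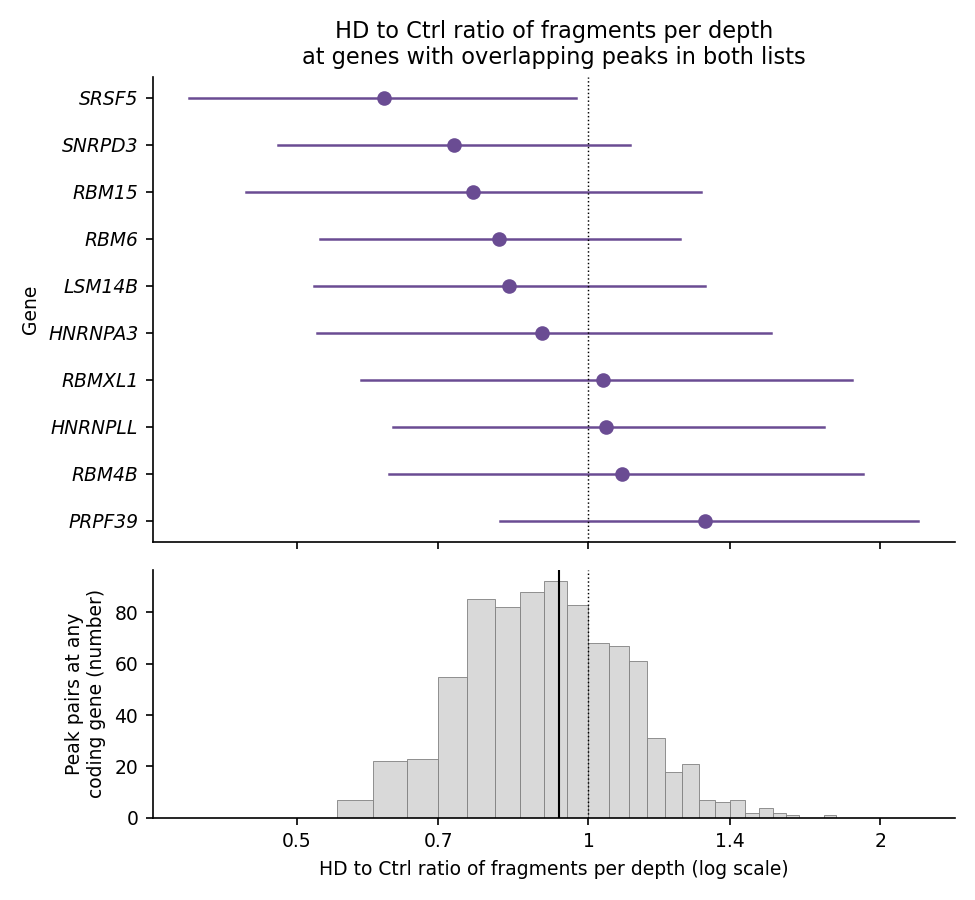
HD to Ctrl ratio of fragments per depth at the 10 members with overlapping peaks, with 95% counting intervals on a log axis. The lower panel is a histogram of the ratios of all 833 pairs, with a solid line at their median. Dotted lines stand at 1. The interval of SRSF5 lies below 1 and holds the median of all pairs, 0.933. The other 9 intervals hold 1.

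The 7 members marked in HD only had 26 to 51 fragments, with a median of 30. RBM15B, the paralog of RBM15, was the strongest, with 51 fragments in HD (38.0 to 67.1) and a fold of 4.21 at chr3:51391059-51391310, 83 bp before its start, and the nearest Ctrl peak was 5.74 kb away. RBM27, a zinc finger RNA-binding protein, had 35 in HD (24.4 to 48.7), in a peak also at an end of the read-through gene RBM27-POU4F3. SF3B2, a subunit of the SF3B complex that helps the U2 snRNP to bind the branch site, had 31 in HD (21.1 to 44.0), 168 bp before the start. These 3 peaks covered the gene starts with their summits upstream, and no Ctrl peak lay within 1 kb of an end of these genes. U2AF1L4, a relative of the small subunit of the 3′ splice site factor U2AF, had 30 in HD at a peak shared with PSENEN. PRPF38B, a PRP38-domain gene, had 29 in HD and the lowest −log10 q of the 7, 1.45. LSM4, part of the Sm-like ring of the U6 snRNP, and HNRNPR, an hnRNP gene, had 26 each in HD. Scaled to the depth of Ctrl these 7 peaks would hold 18.5 to 36.3 fragments. The lowest called summit of Ctrl held 15, but peaks are called against a local expectation. Whether the 7 would be called at that depth was not tested. A missing peak is a missing call: the coverage at these places in the other list was not analysed here.

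The 17 members marked in Ctrl only had 18 to 41 fragments, with a median of 25. SRSF1, the SR protein that acts in both constitutive and alternative splicing, had 41 in Ctrl (29.4 to 55.6), a fold of 4.58 and a −log10 q of 10.3, at chr17:58007302-58007803. Its summit stood 426 bp before the start, and the nearest HD peak was 132 kb away. SRSF2, an SR protein and a common marker of nuclear speckles, had 35 in Ctrl (24.4 to 48.7) and a fold of 4.85 at chr17:76737364-76737583, in a peak shared with MFSD11, and the nearest HD peak was 65.5 kb away. SRSF4, another SR protein, had 25 in Ctrl (16.2 to 36.9) and the highest fold of the 17, 5.41, with its summit 190 bp before the start in the window shown above. Of the 4 SRSF genes marked in Ctrl, 1 was also marked in HD, beside 47.7% of all Ctrl-marked coding genes, a count with no test. The other 3 held the highest −log10 q of the 17.

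Among the hnRNP genes marked in Ctrl only, HNRNPF, which binds G-rich RNA, had 33 fragments in Ctrl, and HNRNPA0, of the hnRNP A/B family, had 27. HNRNPC, which binds uridine-rich tracts, had 25 in Ctrl with a fold of 5.16, HNRNPD, which binds AU-rich messages, had 23, and HNRNPK, which binds C-rich nucleic acids, had 18. HNRNPK gave the lowest number of fragments of any marked member, and its peak was shared with RMI1. The snRNP genes marked in Ctrl only were SNRPA, for a U1 snRNP protein, with 26 in Ctrl, SNRPD2, for SmD2, with 24, and SNRPB, for the SmB proteins, with 23. The SNRPA peak was shared with ACTMAP and the SNRPD2 peak with QPCTL. LSM5, for another protein of the Sm-like ring, had 27 in Ctrl at a peak shared with AVL9. Of the RBM genes, RBM25, a splicing regulator, had 31 in Ctrl, RBM7, of the nuclear exosome targeting complex, had 27, RBM14, a paraspeckle protein, and RBM42 had 21 each, and RBM39, a splicing factor related to U2AF, had 19. The RBM7 peak was shared with C11orf71, and the RBM14 peak with the read-through gene RBM14-RBM4. Scaled to the depth of HD these 17 peaks would hold 25.3 to 57.6 fragments, and the lowest called summit of HD held 20. That lowest value is not the local threshold, and whether the 17 would be called was not tested. With equal list lengths 8 Ctrl-marked members lost their peak, namely HNRNPK, RBM25, RBM39, RBM42, RBMXL1, SNRPA, SNRPB and SNRPD2. SRSF1, SRSF2 and SRSF4 kept theirs, which was given in advance by their high −log10 q, the value that set the cut.

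Where strand was known, member peaks lay at gene starts. Strand was known for 16 gene and peak pairs in HD and 24 in Ctrl, and every one lay at the annotated start, beside 93.2% of such pairs over all coding genes in HD and 94.9% in Ctrl. The summit was upstream of the start in 14 of 16 in HD and 19 of 24 in Ctrl, beside 79.6% and 78.3% over all coding genes. The median position of the summit was -141 bp from the start in HD and -156.5 bp in Ctrl. SRSF5 was the member farthest downstream in both lists. Another coding gene's end lay at 6 of the 18 member peaks in HD (33.3%, against 21.8% of all gene-end peaks) and at 11 of 28 in Ctrl (39.3%, against 21.5%), and a peak between neighbouring starts cannot be assigned to either gene.

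**Figure D4:**
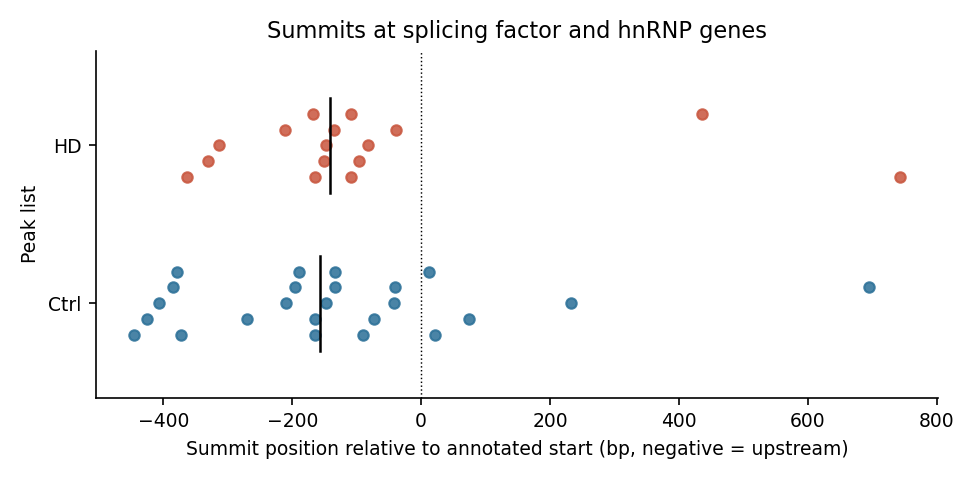
Distance of each member's peak summit from the annotated start (horizontal axis, bp, negative before the start) for HD and Ctrl; points are summits, solid lines medians and the dotted line the start. Most summits lie before the start, and SRSF5 stands apart at 743 bp after it in HD and 695 bp after it in Ctrl.

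Promoter sequence was read for a G4 motif, as a description with no test. The motif was 4 runs of GGG with 1 to 7 bases between neighbouring runs, on either strand, in the 300 bases from 250 before to 50 after the start. A RefSeq promoter matched 118 of the 134 members, and 24 of them (20.3%) held the motif, against 4763 of 15812 promoters of all coding genes (30.1%). Among marked members it was found in 3 of 16 in HD (18.8%, against 36.5% of all HD-marked promoters) and in 6 of 24 in Ctrl (25%, against 37.1%). With up to 12 bases between runs, a setting added after the data were seen, the shares were 32.2% of members and 45.1% of all coding genes. At that setting the motif was found in 13 of 31 marked members (41.9%, against 55.2% of all marked promoters). Among unmarked members it was found in 25 of 87 (28.7%, against 43.4%). The unmarked members held the narrower motif in 17 of 87 (19.5%, against 29.1%). The 7 marked members with the narrower motif were RBMXL1 and SNRPD3, marked in both lists, LSM4, marked in HD only, and LSM5, HNRNPK, HNRNPF and RBM14, marked in Ctrl only. The promoter given for HNRNPF belongs to a start inside the gene. Most marked members, LSM14B and RBM6 among them, therefore had a peak without the narrower motif in this window. LSM14B held the motif with up to 12 bases between runs, and RBM6 did not. The median GC content was 65% for marked members and 61.3% for unmarked ones, beside 67.3% and 61.7% over all coding genes, where marked promoters were likewise the more GC-rich. The window covers the promoter and not the whole peak, and a missing motif says nothing of other G4 forms.

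**Figure D5:**
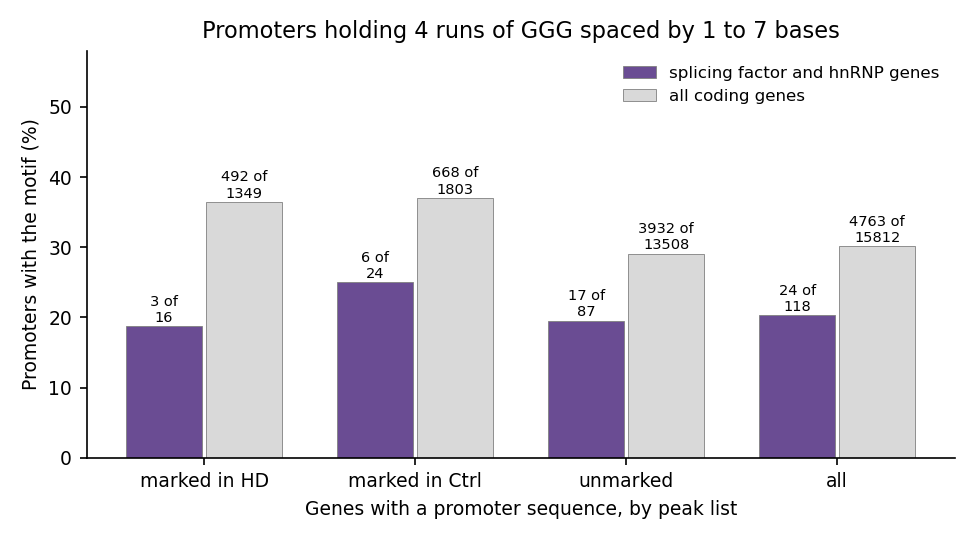
Share of 300-base promoters with the G4 motif (vertical axis, percent), for members and for all coding genes, by the list that marked the gene. The members stand at 20.3% and all coding genes at 30.1%.

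Among the 99 members without a peak at an end in either list were SF3A1, SF3A2 and SF3A3, which build the SF3A complex of the U2 snRNP. SF3B1, the largest SF3B protein, PRPF8, the core protein of the spliceosome's catalytic centre, and U2AF1 and U2AF2, the subunits of U2AF, were also unmarked, as were HNRNPA1, HNRNPA2B1 and HNRNPU. U2AF2 was the nearest miss in Ctrl, with 25 fragments (16.2 to 36.9) in a peak outside the gene, 1048 bp from a gene end. HNRNPL had 2 Ctrl peaks inside the gene, the nearer 1898 bp from a gene end. HNRNPH1 also had a Ctrl peak inside the gene, with 25 fragments. HNRNPUL1 was the nearest miss in HD, with 30 fragments (20.2 to 42.8) in a peak inside the gene, 1469 bp from a gene end. For members without a mark in a list, the nearest peak was a median of 367.5 kb away in HD (116 members) and 239.8 kb away in Ctrl (106 members).

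The other splicing genes, 107 spliceosome, SMN complex and splicing regulator genes outside the symbol rule, were marked at 13 in HD (12.1%, against 8.11% of all coding genes) and 18 in Ctrl (16.8%, against 10.9%). Of these, 6 were marked in both lists (5.61%, against 5.20%), 7 in HD only (6.54%, against 2.92%) and 12 in Ctrl only (11.2%, against 5.70%). Of the 18 Ctrl-marked genes 6 (33.3%, against 47.7%) were marked in HD too. The 6 with the highest −log10 q in HD were SNRNP70, of the U1 snRNP, with 33 fragments, TXNL4A, of the U5 snRNP, with 31, the RNA helicase gene DDX5 with 50, PUF60, a U2AF-related splicing factor, with 42, the splicing regulator RBFOX2 with 33 and SMNDC1, an SMN-related splicing factor, with 28. The 6 in Ctrl were KHDRBS1, an RNA-binding signalling protein, with 29 fragments, USP39, of the U4/U6.U5 tri-snRNP, with 26, PUF60 with 39, the spliceosome gene SMU1 with 26, the mRNA export adaptor ALYREF with 30 and COIL, the coilin of Cajal bodies, with 23. PUF60 was the one gene among the 6 of both lists. The peaks of TXNL4A, DDX5, PUF60, USP39 and ALYREF also lay at ends of RBFA, CEP95, NRBP2, TMEM150A and ANAPC11, in that order.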

How the data were processed

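BG4 ChIP and input libraries of HD and Ctrl U2OS cells were compared through 1 peak list per group. Per the submitters' processing notes, MACS2 2.2.7.1, Bowtie2 2.5.0, FastQC 0.11.9 and SAMtools were run on hg38, with settings not known here. The deposited lists give, for each peak, the authors' fold enrichment of ChIP over the local expectation (a ratio) and the authors' −log10 p and −log10 q values, all as MACS2 writes them. All HD peak names carry the number of replicate 1.

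With Python 3.11.15, NumPy 2.4.6, pandas 2.3.3 and SciPy 1.17.1, whole ChIP fragments at each summit were recovered from fold and −log10 p, within 0.01, for 2262 of 2269 HD peaks and 3501 of 3507 Ctrl peaks; more than 1 number matched for 94 HD and 171 Ctrl peaks, and the closest was taken. On 1500 simulated peaks per list with simplified input expectations, the fragments were recovered for 100.0% (HD-like) and 99.9% (Ctrl-like). Depth was derived from the same values and from a fragment length fitted to them, which the simulation did not check. The fitted length matched 38.6% of the local expectations used for the fit in HD and 45.4% in Ctrl. Ratios carry exact binomial 95% intervals, which cover counting error only. Genes were 19821 coding genes of the RefSeq table of GRCh38.p14; read-through symbols with a hyphen are no members.

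Named genes were all members marked in both lists, up to 10 marked in 1 list by −log10 q, SRSF1 and SRSF2, with the other marked members given briefly (1 gene is counted but not reported here); of other splicing genes, up to 6 per list. Members and lists were chosen with earlier results of these data known. The 7 printed promoters were chosen after their values were seen. No test was made, since each group has 1 list. Figures were drawn with matplotlib 3.10.9.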

Additional observations from a re-analysis of the deposited data

How the results depend on the processing

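The counts of marked members were recomputed with 8 other rules, the count in both lists also with a minimum overlap of the peaks, and the median fragment ratio with 2 other scalings. Of 43 alternative values, 37 stayed within 1.5 times the main count or within the spread of the member ratios, and 6 did not. Requiring a peak to overlap the gene end itself (window of 0 bp) left 10 members in HD (7.46%, against 4.04% of all coding genes) and 11 in Ctrl (8.21%, against 6.19%), with 4 in both lists and 7 in Ctrl only. Equal list lengths left 10 members in Ctrl only. For these counts in both lists and in Ctrl only, the shares over all coding genes under the same rules are not given. Without scaling by depth the median HD to Ctrl ratio was 1.21. No paired analysis was possible because each group has 1 peak list, which carries no separate replicate values; for the same reason no replicate could be left out. The part of depth in which weak peaks were called was not tested, and the spread between libraries is unknown.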
